A study of Mus musculus with 11 samples.

Results

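Arachidonic acid and prostaglandin enzymes were followed in mouse testis as 10 genes looked up by name in a table of 24411 genes. They were Pla2g4a, Ptgs1, Ptgs2, Ptgds, Ptges, Ptgis, Alox12, Alox15, Alox5 and Alox5ap, and all 10 were found. The RNA came from whole testes, freed of their capsule, of untreated mice aged 20 weeks, so that germ cells, Sertoli cells, Leydig cells and vessels were measured together. WT animals (wild-type C57Bl/6J, n = 4) were littermates bred from heterozygous Irp1 parents. Irp1-/- animals (n = 4) carried a homozygous knockout of Aco1, the gene of iron regulatory protein 1, in every tissue, on the same background. Irp2-/- animals (n = 3) are labelled as a global knockout of Ireb2, the gene of iron regulatory protein 2, and the origin and background of that line are not stated in the sources used here, so that line and genotype cannot be told apart in its comparisons. Both proteins bind iron-responsive elements in mRNA and so set the uptake and storage of iron. Levels are given as CPM, the count of a gene scaled to a sample total of 1000000, from total counts between 15902473 and 22451417 per sample.

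Arachidonic acid is cut from membrane phospholipids by phospholipases A2 and then enters separate routes. Cyclooxygenases turn it into prostaglandin H2, which terminal synthases convert into prostaglandin D2, prostaglandin E2, prostacyclin or thromboxane, while lipoxygenases make hydroperoxides and leukotrienes. Several of these enzymes hold iron, as heme in the cyclooxygenases and in prostacyclin synthase and as non-heme iron in the lipoxygenases. In the testis, Ptgds is known as a secreted lipocalin of somatic and germ cells.

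The labelled genotypes were checked first by the deleted genes. Irp2-/- testes held 61.3 to 64.4 CPM of Ireb2 where WT testes held 132 to 142 CPM. For Aco1, Irp1-/- testes ranged from 7.98 to 9.19 CPM while WT ranged from 9.59 to 12.9 CPM. Both transcripts were thus lower but not lost. For Aco1 the log2 fold change in edgeR between Irp1-/- and WT was -0.45 (standard error 0.098, adjusted p = 0.0158), and for Ireb2 between Irp2-/- and WT it was -1.16 (standard error 0.050, adjusted p = 2.8e-13). Markers of testis cell types were present in every sample, with summed levels of 16321 to 20754 CPM for 7 elongating spermatid genes. The 8 epididymis markers had a summed level of 3.07 to 5.12 CPM, most of it from Rnase10, with 2.64 to 4.43 CPM in every sample. Spink8 had 0.15 to 0.55 CPM. The others had at most 4 counts in a sample, and Lcn5 had no count in any sample. No member lies on chromosome 4, which carries Aco1, or on chromosome 9, which carries Ireb2. Some genes set beside the members later do, among them the Leydig marker Cyp11a1 and the Sertoli marker Trf on chromosome 9. Ptgr1, among the genes most like Alox12, lies on chromosome 4.

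Ptgds stood far above the other members. It encodes lipocalin-type prostaglandin D synthase, which makes prostaglandin D2 and also carries lipophilic molecules. In WT testes it made 88.5% of the summed CPM of the 10 genes and ranked 1661st of 24411 genes. Per kilobase of annotated exon sequence, which allows levels of different genes to be set side by side, it reached 163 CPM (131 to 193 over 11 samples). Ptgis followed at 1.99 CPM per kilobase (1.65 to 2.55) and Alox12 at 1.47 (1.15 to 1.94), and these neighbours overlapped in their ranges. Pla2g4a had 0.838 CPM per kilobase (0.689 to 1.00), below the lowest Alox12 value. Ptges with 0.596 (0.282 to 0.782), Alox5ap with 0.559 (0.0934 to 0.883), Alox5 with 0.429 (0.285 to 0.561) and Alox15 with 0.316 CPM per kilobase (0.179 to 0.431) each overlapped the neighbour above. Ptgs1 had 0.111 CPM per kilobase (0.0439 to 0.171) and Ptgs2 0.0033 (0 to 0.013), and both lay below the lowest value of the gene above them.

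**Figure D1:**
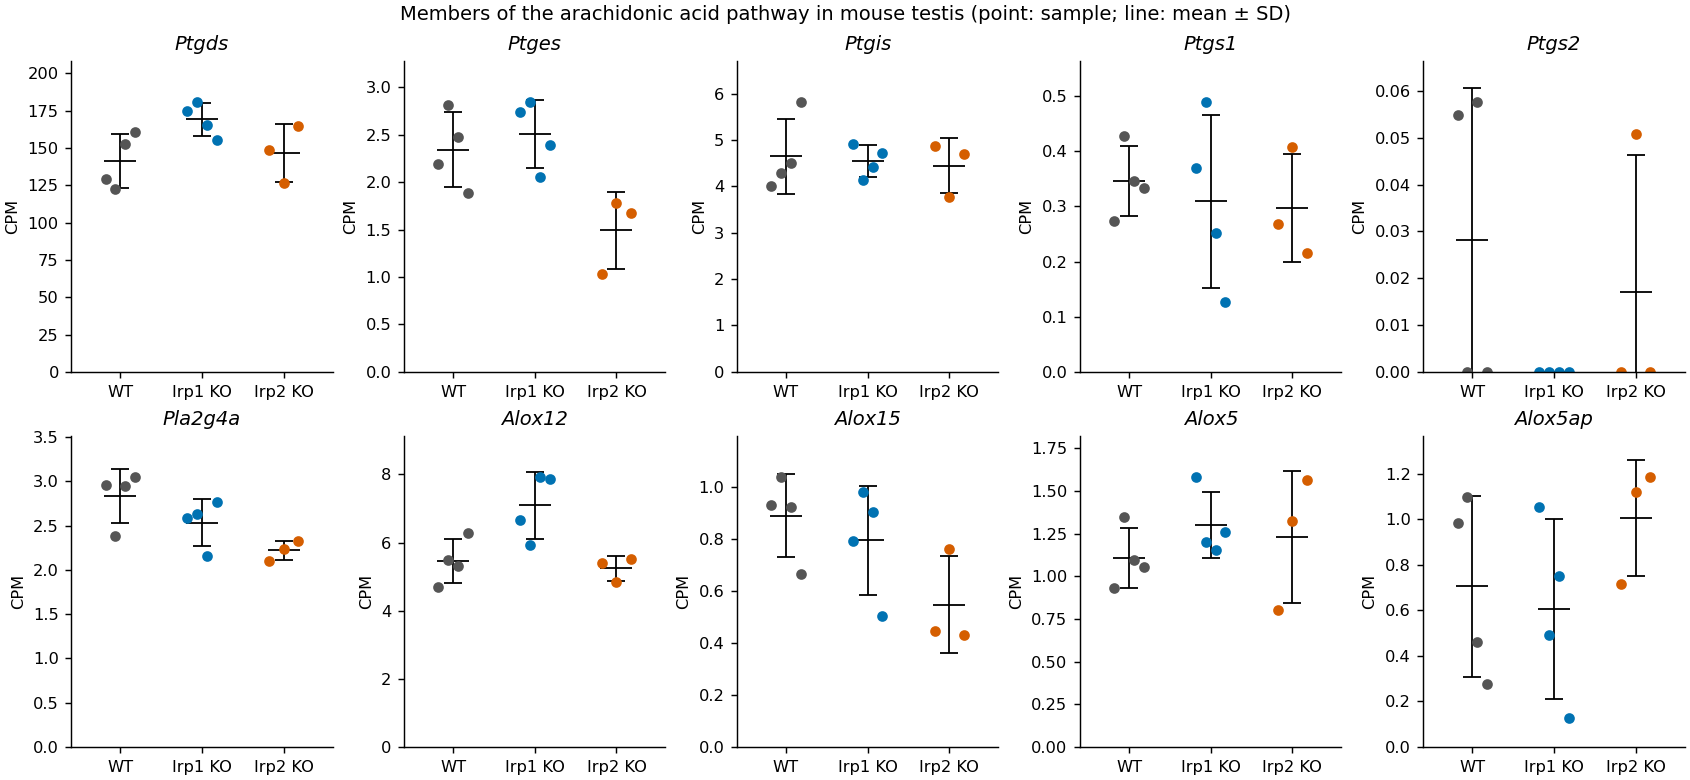
Level of each of the 10 genes in CPM (vertical axes, each from 0) by genotype. Each point is a testis sample, with the mean ± SD as lines (n = 4 WT, 4 Irp1-/- and 3 Irp2-/-; the SD bars of Ptgs2 are cut at 0). Ptgds lies between 122 and 181 CPM while no other gene exceeds 7.93 CPM, and Ptges in the Irp2-/- samples lies below every sample of the other genotypes.

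Both cyclooxygenase genes were at the edge of detection. Ptgs1, the constitutive enzyme that makes prostaglandin H2, had 2 to 11 counts per sample and a mean of 0.345 ± 0.063 CPM in WT (SD, n = 4), 0.309 ± 0.16 CPM in Irp1-/- (SD, n = 4) and 0.297 ± 0.099 CPM in Irp2-/- testes (SD, n = 3). Ptgs2, the inducible enzyme, had 1 count in WT replicates 1 and 3 and in Irp2-/- replicate 2 and 0 in the other 8 samples. A count of 0 still allows a level of up to 0.134 to 0.189 CPM (3 counts of the sample's total, counting error only). The genotypes overlapped for both genes, and neither passed the filter on low counts, so they were left out of the main test. With no filter, the log2 fold changes of Ptgs1 were -0.11 (standard error 0.48) for Irp1-/- against WT, -0.22 (standard error 0.52) for Irp2-/- against WT and 0.11 (standard error 0.52) between the knockouts, and the edgeR adjusted p of both genes lay between 0.656 and 0.966. Standard errors of this size leave small differences in cyclooxygenase mRNA undetectable at this depth.

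The remaining 8 members passed the filter in each comparison. Between Irp1-/- and WT, none of the 8 had an adjusted p under 0.05 in edgeR's quasi-likelihood test, where 1.02% of 16002 genes did (0.581% higher and 0.444% lower in Irp1-/-). Ptgds and Alox12 had an unadjusted p under 0.05, as did 12.1% of all genes. DESeq2 called no member, beside 172 of the 16002 genes. It gave no adjusted p for Alox15, Alox5 and Alox5ap, so these could not be called there. Between Irp2-/- and WT, again 0 of 8 were called by either tool, against 1.21% of 16154 genes in edgeR (0.371% higher and 0.842% lower in Irp2-/-). DESeq2 called 185 of these 16154 genes. The unadjusted p was under 0.05 for Ptges, Alox15 and Pla2g4a, against 9.42% of all genes. Between Irp1-/- and Irp2-/-, 1 of 8 was called, Ptges, against 4.69% of 16281 genes and 2.92% called in the same direction. The unadjusted p was under 0.05 for Ptges, Alox12 and Ptgds, against 16.3% of all genes. DESeq2 called no member, beside 639 of the 16281 genes. The samples of the compared genotypes did not overlap for 0, 2 and 2 of the 8 in these comparisons, in the same order, against 6.18%, 9.76% and 15.1% of all genes tested. The median log2 fold change of the 8 was 0.02, -0.08 and 0.21, beside 0.00 over all genes tested in each. The comparisons with WT share the WT samples, so they are not independent of each other.

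**Figure D2:**
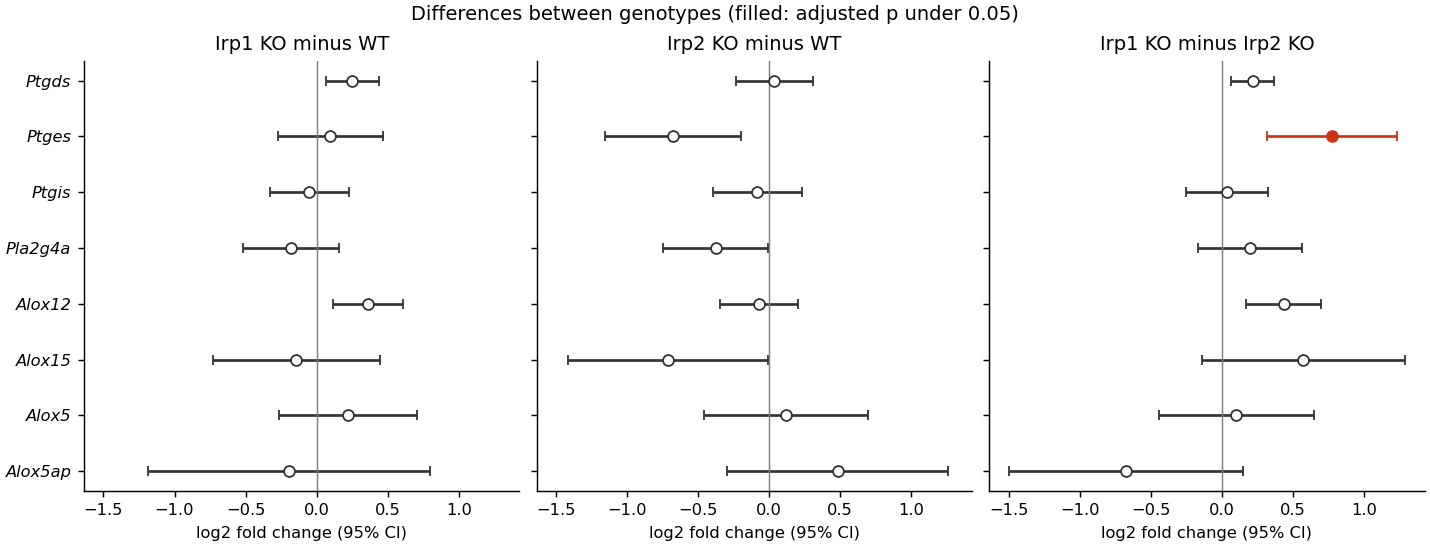
Log2 fold change of the 8 tested genes (horizontal axis, with 95% confidence interval) between the genotypes named above each panel. Filled red points have an adjusted p under 0.05. Ptges between Irp1-/- and Irp2-/-, at 0.78, is the single filled point, and the widest intervals belong to Alox5ap and Alox15, the genes with the fewest counts among those tested.

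Ptgds lies on chr2:25466709-25470046 (GRCm38, the mm10 assembly, minus strand), with no overlapping gene among those counted. In WT replicates 1 to 4 it had 129, 122, 152 and 161 CPM. Irp1-/- replicates 1, 2, 6 and 7 had 175, 181, 165 and 155 CPM, and Irp2-/- replicates 1 to 3 had 149, 127 and 165 CPM. WT replicates 1 and 2 and Irp2-/- replicate 2 were low, and the Irp1-/- samples overlapped WT only through replicate 7 against WT replicate 4. The mean was 169 ± 11.3 CPM in Irp1-/- (SD, n = 4), 141 ± 18.3 CPM in WT (SD, n = 4) and 147 ± 19.2 CPM in Irp2-/- testes (SD, n = 3). The log2 fold change of Irp1-/- against WT was 0.25 (standard error 0.083, 95% confidence interval 0.063 to 0.44), a fold of 1.19, and did not pass (adjusted p = 0.253). Leaving out WT replicate 4 gave 0.31 and an adjusted p of 0.0413, so that single animal decided the call, and over the other alternatives without a replicate block the adjusted p lay above 0.05. Against Irp2-/-, Irp1-/- testes differed by 0.22 (standard error 0.072, 95% confidence interval 0.065 to 0.37, adjusted p = 0.108), and without Irp2-/- replicate 3 by 0.30 with an adjusted p of 0.0119, the single alternative without a replicate block in which it passed. Between Irp2-/- and WT the log2 fold change was 0.035 (95% confidence interval -0.23 to 0.30, adjusted p = 0.969).

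The Ptgds promoter is shown because this gene carries most of the signal of the set. The 250 bases before the RefSeq start site, chr2:25469750-25469999 on the minus strand of GRCm38.p6, are written 5′ to 3′, with matches to searched motifs in capitals. These bases lie inside the annotated span of Ptgds given above, so the RefSeq start differs from the end of that span.
Ptgds: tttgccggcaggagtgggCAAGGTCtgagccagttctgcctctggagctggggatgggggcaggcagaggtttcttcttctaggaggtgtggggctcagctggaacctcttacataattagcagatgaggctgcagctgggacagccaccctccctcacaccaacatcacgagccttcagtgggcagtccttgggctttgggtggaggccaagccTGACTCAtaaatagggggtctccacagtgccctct
The first run of capitals is CAAGGTC, the motif of SF-1 (Nr5a1), a regulator of steroid-making cells, starting 232 bases before the start site, and the second is the AP-1 site TGACTCA, 35 bases before it. Of 32851 mouse promoters of the same length (250 bases before to 50 after the start), 3.96% hold CAAGGTC and 5.20% hold TGACTCA on either strand. The motifs were chosen after the promoters were seen, so these shares do not measure how unusual a match is. A match is a description of the letters, not a shown binding site. The other motifs searched were TATAAA (13.6% of promoters), CACGTG (7.15%) and the cyclic AMP response element TGACGTCA (1.79%), and the 5 motifs do not overlap in these sequences. Promoters of 7 members, in 8 sequences, were at hand. Besides Ptgds, CAAGGTC occurred in that of Alox12, CACGTG in that of Ptgs2, and TATAAA in the second of 2 Pla2g4a promoters.

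Across the 11 samples Ptgds ran with the Leydig cell markers. These were 7 genes of steroid synthesis and Leydig cell function (Cyp11a1, Cyp17a1, Hsd3b1, Hsd3b6, Star, Insl3 and Lhcgr). Their summed level was 753, 725, 1071 and 1002 CPM in WT replicates 1 to 4. It was 1130, 1180, 1001 and 1008 CPM in Irp1-/- replicates 1, 2, 6 and 7, and 927, 759 and 1034 CPM in Irp2-/- replicates 1 to 3. The 3 samples with the lowest Ptgds were thus also the 3 with the lowest Leydig marker sums. Pearson's r between log2 CPM of Ptgds and the mean log2 CPM of the markers was 0.93 over 11 samples (two-sided permutation p = 7.0e-05, adjusted p = 0.0028 over 40 pairs of 8 members and 5 marker lists). Spearman's rho was 0.85 (permutation p = 0.0021, adjusted p = 0.042). Without WT replicates 1 and 2, the samples farthest from the median of the marker level, r was 0.91, and with the genotype means removed it was 0.93. Among the 8 samples with a marker sum above 900 CPM r was 0.77. With single markers r ranged from 0.67 for Hsd3b6 to 0.84 for Cyp17a1.

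**Figure D3:**
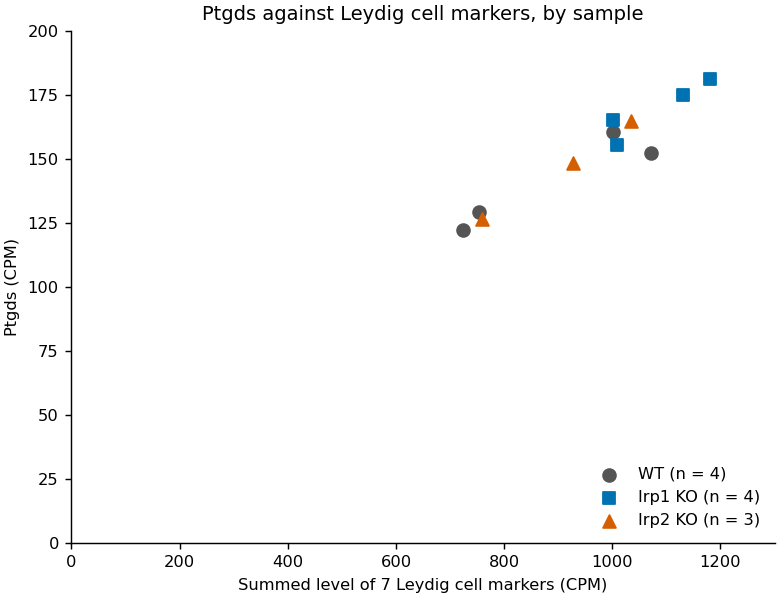
Ptgds level (vertical axis, CPM) against the summed level of 7 Leydig cell markers (horizontal axis, CPM), both from 0, with a point for each of the 11 testis samples and a symbol for each genotype. WT replicates 1 and 2 and Irp2-/- replicate 2 sit together at the lower left, with 122 to 129 CPM of Ptgds, and the highest pair at the upper right are Irp1-/- replicates 1 and 2.

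Ptgds per 1000 CPM of Leydig markers varied less than either measure, with a coefficient of variation of 5.26% over 11 samples against 12.8% for Ptgds and 16.1% for the marker sum. This ratio was 157 ± 5.51 in Irp1-/- (SD, n = 4), 161 ± 13.3 in WT (SD, n = 4) and 162 ± 4.01 in Irp2-/- testes (SD, n = 3). Irp1-/- and WT did not differ in it beyond the spread between samples (exact permutation test, two-sided, p = 0.60), where the smallest p that 4 samples against 4 allow is 0.0286. For Ptgds itself the same exact permutation test gave p = 0.0571, and for the marker sum p = 0.143. Insl3 makes much of the sum, with 374 to 556 CPM, and without it the ratio of Irp1-/- to WT was 0.796 (exact permutation p = 0.286). WT replicate 1 had 479 CPM of Insl3 in its sum of 753 CPM, and WT replicate 3 had 522 CPM in 1071 CPM. The low variation of the ratio thus depends on Insl3 and does not extend to the other markers alone. In RNA of a whole organ, fewer cells of a type and less RNA per cell cannot be told apart. The part of Leydig cell content in the Ptgds differences was not tested beyond these values.

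Of the 40 pairs, Ptgds with Leydig markers alone passed by Pearson's r. Ptgds also ran with 10 Sertoli cell markers, at r = 0.75 (permutation p = 0.0062, adjusted p = 0.0829) and rho = 0.72 (permutation p = 0.0157, adjusted p = 0.126), with r = 0.66 without Irp1-/- replicate 1 and Irp2-/- replicate 2 and 0.63 with the genotype means removed. By Spearman's rho Alox12 with the Sertoli markers also passed (rho = 0.84, permutation p = 0.0020, adjusted p = 0.042), where Pearson's r was 0.76 (permutation p = 0.0062, adjusted p = 0.0829), 0.85 without Irp1-/- replicate 1 and Irp2-/- replicate 2, and 0.45 with the genotype means removed. Ptgis with the Sertoli markers had r = 0.66 (permutation p = 0.0298, adjusted p = 0.26) and rho = 0.78 (permutation p = 0.0065, adjusted p = 0.0869), with r = 0.54 without the same 2 samples and 0.91 with the genotype means removed. With the myoid and smooth muscle markers, Ptgis had a similar r = 0.64 (permutation p = 0.0345, adjusted p = 0.26) and rho = 0.71 (permutation p = 0.0190, adjusted p = 0.126). That r was 0.62 without the 2 farthest samples and 0.74 with the genotype means removed. Alox5 and Alox5ap, genes of leukocytes, had r = 0.62 and r = 0.52 with 9 macrophage markers (permutation p = 0.0442 and p = 0.103, adjusted p = 0.26 and 0.342), with rho of 0.65 and 0.61 (permutation p = 0.0380 and p = 0.0537) and r of 0.49 and 0.34 without the 2 farthest samples. Alox5ap ran more strongly against the myoid and smooth muscle markers, at r = -0.61 (permutation p = 0.0455, adjusted p = 0.26). There rho was -0.72 (permutation p = 0.0166, adjusted p = 0.126), and r was -0.58 without the 2 farthest samples. Pla2g4a ran against the macrophage markers at r = -0.52 (permutation p = 0.0922, adjusted p = 0.342). None of these relations passed the correction except that of Alox12 by rho.

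Ptges encodes microsomal prostaglandin E synthase, which turns prostaglandin H2 into prostaglandin E2, and lies on chr2:30889471-30929863 (minus strand), where the annotated Gm13400, a gene on the same strand that is not in the table, overlaps it. In Irp1-/- replicates 1, 2, 6 and 7 it had 2.75, 2.85, 2.06 and 2.39 CPM. WT replicates 1 to 4 had 2.19, 2.81, 2.48 and 1.89 CPM, and Irp2-/- replicates 1 to 3 had 1.03, 1.78 and 1.67 CPM. All Irp2-/- samples were below all samples of both other genotypes, which overlapped each other. Ptges was higher in Irp1-/- than in Irp2-/- testes by 0.78 on the log2 scale (standard error 0.22, 95% confidence interval 0.32 to 1.23, adjusted p = 0.0441), a fold of 1.71. Behind it stand 38 to 64 counts per Irp1-/- sample and 23 to 35 per Irp2-/- sample. The call was narrow. Over the alternatives without a replicate block the adjusted p lay between 0.0277 and 0.187, it was 0.116 in DESeq2, and it rose above 0.05 when any Irp2-/- sample or Irp1-/- replicate 1, 2 or 7 was left out, with log2 fold changes of 0.55 to 0.94. Against WT, Irp2-/- testes differed by -0.68 (standard error 0.23, 95% confidence interval -1.15 to -0.20, adjusted p = 0.227). Between Irp1-/- and WT the difference was 0.10 (95% confidence interval -0.27 to 0.47, adjusted p = 0.891).

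The Ptges promoter is given as that of the member called between the knockouts, again as the 250 bases before the RefSeq start site. It covers chr2:30903298-30903547 of GRCm38.p6 on the minus strand. This stretch lies inside the annotated span of Ptges given above, so the RefSeq start differs from the end of that span. It held none of the 5 motifs, so it has no capitals.
Ptges: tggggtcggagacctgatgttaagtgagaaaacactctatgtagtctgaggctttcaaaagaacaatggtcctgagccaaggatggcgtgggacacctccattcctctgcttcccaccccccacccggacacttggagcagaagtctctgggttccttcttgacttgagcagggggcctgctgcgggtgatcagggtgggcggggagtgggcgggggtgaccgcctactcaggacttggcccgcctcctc

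Markers of several somatic cells differed between the same knockouts. In the comparison of Irp1-/- with Irp2-/-, 2 of 7 Leydig markers (Hsd3b1 and Insl3), 3 of 10 Sertoli markers (Fshr, Rhox5 and Trf) and 1 of 6 smooth muscle markers (Actg2) rose in Irp1-/-, and 1 of 6 endothelial markers (Vwf) fell, where 2.92% of all genes tested rose and 1.76% fell. DESeq2 called 2 Leydig, 1 Sertoli, 1 smooth muscle and 1 endothelial marker here, beside 639 of the 16281 genes tested. For Hsd3b1, a steroid dehydrogenase, the log2 difference in edgeR was 0.68 (edgeR adjusted p = 0.0170). For Fshr, the receptor of follicle-stimulating hormone, it was 0.83 (adjusted p = 0.0365), from 20 to 53 counts per sample. Rhox5 and Trf, which encode a Sertoli cell homeobox protein and transferrin, had 0.36 and 0.37 (adjusted p = 0.0394 and 0.0227). Insl3, a Leydig cell hormone, had 0.27 (adjusted p = 0.0425), Actg2, a smooth muscle actin, 0.19 (adjusted p = 0.0351), and Vwf, von Willebrand factor, -0.47 (adjusted p = 5.5e-04). The summed endothelial level was 32.9 to 34.5 CPM in Irp1-/- and 39.6 to 43.1 CPM in Irp2-/- testes, and the Sertoli sum 1469 to 1709 CPM and 1322 to 1537 CPM. Most of the endothelial gap was Vwf itself, with 15.0 to 17.2 CPM in Irp1-/- and 21.5 to 23.7 CPM in Irp2-/- testes, and 3 of the 6 endothelial markers had a log2 fold change above 0 and 3 below. The 6 smooth muscle markers were split in the same way. The correlation of Ptges with the Leydig markers was 0.01 and with the Sertoli markers 0.25 over 11 samples (permutation p = 0.985 and p = 0.454, with rho of 0.30 and 0.20). Without the 2 farthest samples r was 0.57 and -0.06, and with the genotype means removed -0.16 and -0.47. With the smooth muscle markers r was -0.47 (permutation p = 0.143, rho -0.32), and -0.72 with the genotype means removed. With the endothelial and macrophage markers r was -0.11 and -0.07 (permutation p = 0.745 and p = 0.832), and 0.49 and 0.52 with the genotype means removed. No list passed the correction with Ptges. The part of these cell types in the Ptges difference was not tested further.

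Ptgis encodes prostacyclin synthase, a heme enzyme known from vessel walls and smooth muscle, on chr2:167191805-167240604. It had 4.65 ± 0.81 CPM in WT (SD, n = 4), 4.55 ± 0.34 CPM in Irp1-/- (SD, n = 4) and 4.45 ± 0.60 CPM in Irp2-/- testes (SD, n = 3). WT replicate 4 was the highest sample at 5.83 CPM and Irp2-/- replicate 2 the lowest at 3.76 CPM. The genotypes overlapped, and the 95% confidence intervals of the log2 fold changes were -0.33 to 0.23 for Irp1-/- against WT, -0.40 to 0.23 for Irp2-/- against WT and -0.25 to 0.32 between the knockouts.

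Pla2g4a encodes the cytosolic phospholipase A2 that frees arachidonic acid after calcium signals, on chr1:149829618-149961290. In WT replicates 1 to 4 it had 2.96, 2.38, 2.94 and 3.05 CPM, in Irp1-/- replicates 1, 2, 6 and 7 it had 2.59, 2.63, 2.16 and 2.77 CPM, and in Irp2-/- replicates 1 to 3 it had 2.10, 2.24 and 2.32 CPM. All Irp2-/- samples were below all WT samples, and the Irp1-/- samples overlapped both groups. The log2 fold change of Irp2-/- against WT was -0.38 (standard error 0.18, 95% confidence interval -0.75 to -0.005) and did not pass (adjusted p = 0.518).

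Among the lipoxygenases, Alox12 was the most abundant. It encodes the 12-lipoxygenase named for platelets, on chr11:70241457-70255353. Irp1-/- replicates 1, 2, 6 and 7 had 6.65, 5.92, 7.93 and 7.86 CPM. WT replicates 1 to 4 had 4.71, 5.50, 5.31 and 6.27 CPM, and Irp2-/- replicates 1 to 3 had 5.41, 4.83 and 5.51 CPM. Every Irp1-/- sample was above every Irp2-/- sample, and WT replicate 4 overlapped the lowest Irp1-/- sample. Against WT, Irp1-/- testes differed by 0.36 (standard error 0.12, 95% confidence interval 0.11 to 0.61, adjusted p = 0.175), a fold of 1.28. Against Irp2-/- they differed by 0.44 (standard error 0.13, 95% confidence interval 0.17 to 0.70), a fold of 1.35, with an adjusted p of 0.0515, just outside the threshold. Among the alternatives without a replicate block, it passed with RLE normalization (adjusted p = 0.0497), with no filter (0.0452), with at least 10 counts in every sample (0.0489), in the fit of all 11 samples (0.0395) and without Irp1-/- replicate 2 (0.0283), and not in DESeq2 (0.124) or without any other sample. The platelet genes Pf4, Itga2b and Ppbp were low, at 0.70 to 1.28 CPM, 0.67 to 1.98 CPM and at most 1 count. The summed blood list, led by Hba-a1, was 23.5 to 40.8 CPM in Irp1-/-, 11.4 to 25.1 CPM in Irp2-/- and 17.7 to 22.1 CPM in WT testes, and its part in the Alox12 values was not tested.

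The Alox12 promoter is shown as the other promoter of a member with the SF-1 motif, here on the opposite strand, where it reads GACCTTG and starts 159 bases before the start site. It covers chr11:70255371-70255620 of GRCm38.p6 on the minus strand.
Alox12: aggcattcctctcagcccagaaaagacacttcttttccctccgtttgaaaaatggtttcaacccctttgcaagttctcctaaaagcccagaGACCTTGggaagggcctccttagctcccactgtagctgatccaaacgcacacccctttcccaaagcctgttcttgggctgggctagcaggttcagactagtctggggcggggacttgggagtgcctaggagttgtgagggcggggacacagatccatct

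Alox15, the 12/15-lipoxygenase that oxidizes fatty acids within membranes, lies near Alox12 on chr11:70344152-70352031. It had 0.93, 1.04, 0.92 and 0.67 CPM in WT replicates 1 to 4, 0.79, 0.98, 0.90 and 0.50 CPM in Irp1-/- replicates 1, 2, 6 and 7, and 0.45, 0.76 and 0.43 CPM in Irp2-/- replicates 1 to 3. The Irp2-/- samples were at the low end but overlapped both other genotypes, with 8 to 22 counts per sample over all 11. The log2 fold change of Irp2-/- against WT was -0.71 (standard error 0.34, 95% confidence interval -1.41 to -0.012, adjusted p = 0.516), and its size lay between -1.03 and -0.58 when each sample was left out.

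Alox5, the 5-lipoxygenase of leukotriene synthesis on chr6:116410077-116461178, and Alox5ap, the membrane protein that hands it arachidonic acid, on chr5:149264767-149288153, did not differ between genotypes beyond the spread of the samples. Alox5 had 1.11 ± 0.17 CPM in WT (SD, n = 4), 1.30 ± 0.19 CPM in Irp1-/- (SD, n = 4) and 1.23 ± 0.39 CPM in Irp2-/- testes (SD, n = 3). Alox5ap was the most variable of the tested members, with a coefficient of variation of 49.1% over 11 samples. It had 0.99, 1.10, 0.46 and 0.28 CPM in WT replicates 1 to 4, 1.06, 0.49, 0.75 and 0.13 CPM in Irp1-/- replicates 1, 2, 6 and 7, and 0.72, 1.12 and 1.19 CPM in Irp2-/- replicates 1 to 3. The lowest of these, Irp1-/- replicate 7, rests on 2 counts. The log2 fold change of Alox5ap was -0.19 for Irp1-/- against WT (95% confidence interval -1.19 to 0.80). For Irp2-/- against WT it was 0.48 (-0.29 to 1.26, edgeR adjusted p = 0.793). Between Irp1-/- and Irp2-/- it was -0.67 (-1.50 to 0.15, edgeR adjusted p = 0.435). The width of these intervals shows how little the counts limit it.

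The genes most like each member over the 11 samples were ranked by Pearson's r of log2 CPM among 16406 genes. For Ptgds these were Scd2, a fatty acid desaturase (r = 0.94), Gpd1l (0.93) and Reep5 (0.92). For Alox12 they were Grip1 (0.94), Ptgr1, a reductase that inactivates prostaglandins and leukotriene B4 (0.93), and Susd3 (0.93). Ptges was followed by Gm19589 (0.91), Chst1 (0.90) and Pou6f1 (0.89), and Ptgis by Mob1a (0.92), Tmem229b (0.90) and Zmym1 (0.88). Pla2g4a was closest to Tsga13 (0.91), 2310065F04Rik (0.91) and Ano5 (0.88), and Alox15 to Hps4 (0.89), D6Ertd474e (0.86) and Csnka2ip (0.85). Alox5 was closest to Gpatch2 (0.94), Mlip (0.91) and Zfp451 (0.91), and Alox5ap to genes that included Spag7 (0.95) and Sf3b4 (0.94). With so many genes over so few samples the top values are high for every member, and no p is given. For Ptgds, the values of Scd2, Gpd1l and Reep5 were 0.89, 0.88 and 0.86 with the genotype means removed. In the same order as above, they were 0.86, 0.81 and 0.79 for Alox12 and 0.73, 0.90 and 0.84 for Ptges. Those of Alox15 were 0.83, 0.74 and 0.78, and those of Pla2g4a 0.87, 0.86 and 0.82. For Ptgis, Alox5 and Alox5ap all stayed at or above 0.90.

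The rest of the pathway was read from 5 lists holding 86 genes, all found in the table. Of these, 51, 52 and 54 were tested in the comparisons of Irp1-/- with WT, Irp2-/- with WT and Irp1-/- with Irp2-/-. In the comparisons with WT edgeR and DESeq2 each called 0, where edgeR called 1.02% and 1.21% of all genes tested. The unadjusted p was under 0.05 for 9 of 51 and 2 of 52, against 12.1% and 9.42% of all genes, and between the knockouts for 12 of 54, against 16.3%. These shares are the background for the counts at an unadjusted p of each list given next. Between the knockouts 2 of 54 rose in Irp1-/-, Ephx1 and Hpgd, and 0 fell, beside 2.92% and 1.76% of all genes tested. The median log2 fold change over the lists was 0.06, 0.02 and 0.02, against 0.00 over all genes.

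Arachidonic acid release and reuse was the list with the highest levels. Pla2g6, a calcium-independent phospholipase A2, had 353 ± 8.81 CPM in WT (SD, n = 4) and Lpcat3, which puts arachidonic acid back into phospholipids, 185 ± 1.09 CPM (SD, n = 4). Both were level across genotypes, with Pla2g6 at 355 ± 6.06 CPM and Lpcat3 at 188 ± 4.72 CPM in Irp1-/- testes (SD, n = 4), and 95% confidence intervals of -0.083 to 0.069 and -0.071 to 0.086 for their log2 fold changes against WT. Per kilobase, Pla2g6 reached 97.3 CPM, against 0.838 CPM for the member Pla2g4a. None of the 23 or 24 tested genes of the list was called in any comparison, with 1, 1 and 5 at an unadjusted p under 0.05 in the comparisons in the order above and 0 called by DESeq2.

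Enzymes around the prostaglandins included Ptges3, the cytosolic prostaglandin E synthase also known as the cochaperone p23, with 234 ± 2.11 CPM in WT testes (SD, n = 4), and Ptgr2, a prostaglandin reductase, with 23.9 ± 1.97 CPM (SD, n = 4). Per kilobase Ptges3 had 114 CPM, against 0.596 CPM for Ptges. Of 12 genes 8 were tested, with 3, 0 and 2 at an unadjusted p under 0.05 in the comparisons in the order above. Hpgd, the dehydrogenase that starts the breakdown of prostaglandins, was the called gene of the list. It had 10.1, 6.64, 9.24 and 7.92 CPM in Irp1-/- replicates 1, 2, 6 and 7, and 5.10, 5.90 and 5.56 CPM in Irp2-/- replicates 1 to 3. WT replicates 1 to 4 had 6.19, 6.72, 7.97 and 5.33 CPM. The knockouts did not overlap, WT lay between them and overlapped both, and the log2 fold change of Irp1-/- against Irp2-/- was 0.63 (standard error 0.13, 95% confidence interval 0.35 to 0.90, adjusted p = 0.0063). Gm45540, which overlaps Hpgd on the same strand, is not in the table.

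**Figure D4:**
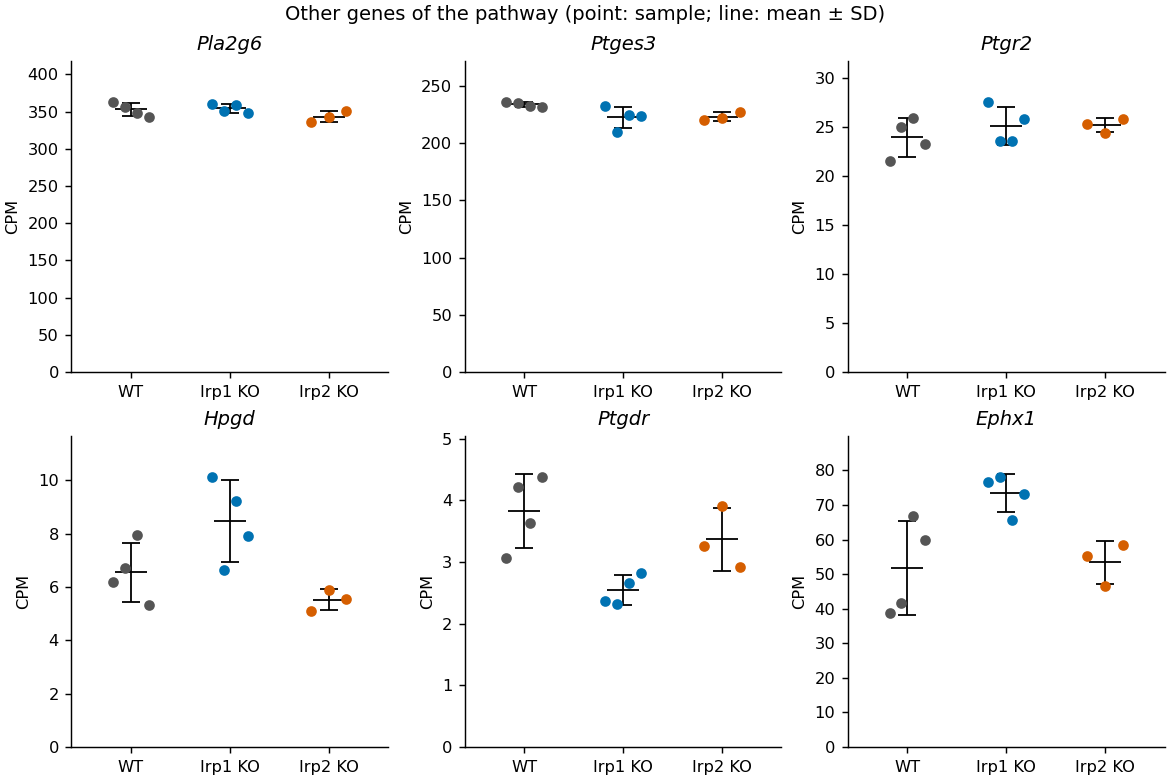
Level of 6 other genes of the pathway in CPM (vertical axes, each from 0) by genotype, with a point for each testis sample and the mean ± SD as lines (n = 4 WT, 4 Irp1-/- and 3 Irp2-/-). Pla2g6, Ptges3 and Ptgr2 are nearly level, while Hpgd and Ephx1 are higher in every Irp1-/- than in every Irp2-/- sample and Ptgdr is lower in every Irp1-/- sample than in every WT and Irp2-/- sample.

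Prostanoid receptors and transporters were led by Ptger1, a prostaglandin E2 receptor, with 5.29 ± 0.24 CPM, and Abcc4, an exporter of prostaglandins, with 5.21 ± 0.74 CPM in WT testes (SD, n = 4 for each). Of 12 genes 6 were tested and 0 were called in the comparisons by edgeR or DESeq2, with 1, 0 and 2 at an unadjusted p under 0.05. Ptgdr, a receptor of prostaglandin D2 named here after its values were seen, had 2.38, 2.32, 2.66 and 2.83 CPM in Irp1-/- replicates 1, 2, 6 and 7 and 3.07, 4.22, 3.64 and 4.38 CPM in WT replicates 1 to 4. These groups did not overlap, and Irp2-/- testes had 2.92 to 3.92 CPM. Its log2 fold change between Irp1-/- and WT, -0.60 (standard error 0.16, 95% confidence interval -0.93 to -0.28), missed the threshold with an adjusted p of 0.057. An annotated gene on the opposite strand, Gm16976, overlaps it.

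In the leukotriene branch, Lta4h, which makes leukotriene B4, had 18.5 ± 1.36 CPM and Dpep1, a dipeptidase that trims leukotriene D4, 5.68 ± 0.71 CPM in WT testes (SD, n = 4 for each). Of 14 genes 5 or 6 were tested, and 0 were called by either tool, with 2, 1 and 1 at an unadjusted p under 0.05. In the epoxygenase branch, Ephx1, the microsomal epoxide hydrolase, led with 51.8 ± 13.7 CPM in WT, followed by Cyp2u1, a fatty acid hydroxylase, with 3.69 ± 0.56 CPM (SD, n = 4 for each). Of its 18 genes 9 or 10 were tested, with 2, 0 and 2 at an unadjusted p under 0.05, and Ephx1 was the gene called. Ephx1 had 76.5, 78.2, 65.7 and 73.3 CPM in Irp1-/- replicates 1, 2, 6 and 7, 55.3, 46.4 and 58.3 CPM in Irp2-/- replicates 1 to 3, and 38.7, 41.8, 66.7 and 60.0 CPM in WT replicates 1 to 4. WT replicates 1 and 2 and Irp2-/- replicate 2, the samples low in Ptgds and in Leydig markers, were also the 3 lowest here. Ephx1 rose in Irp1-/- against Irp2-/- testes by 0.47 on the log2 scale (standard error 0.072, 95% confidence interval 0.32 to 0.62, adjusted p = 4.5e-04). Against WT the difference was 0.49 (standard error 0.18, adjusted p = 0.357), with a wider spread among WT samples.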

How the data were processed

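Stranded paired-end libraries of polyadenylated RNA were made from the testes of 11 mice (4 WT, 4 Irp1-/-, 3 Irp2-/-). The authors ran the nf-core pipeline for RNA-seq on mm10 and deposited raw whole-number counts of each gene. The labels name bcl2fastq 2.20.0.422 and DESeq2. The counting tool and its strand setting are not given in the sources used here, so the counts may be rounded estimates, and reads lost or shared between overlapping genes cannot be recovered. Total counts were 15902473 to 22451417 per sample.

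Samples were grouped by their labels, and each is taken as 1 animal. No pair of replicates was alike within sampling noise (15 pairs, chi-square per degree of freedom 2.00 to 7.05). The 10 members and all lists were chosen with earlier results of these data known. Of 181 listed genes, 178 matched by symbol, 2 by an older symbol and 1 did not match. CPM were computed over the total count. Tests were run by edgeR 4.0.16 under R 4.3.3 (filterByExpr, TMM, robust quasi-likelihood test, Benjamini-Hochberg adjustment over all genes tested, threshold 0.05), using the samples of the 2 genotypes compared. The fit was tested on simulated data. For correlations, CPM were put on the log2 scale (prior count 2), with 100000 permutations. Alternatives were RLE normalization, no filter, at least 10 counts in every sample, DESeq2 1.42.0, all 11 samples in a single fit, a replicate block, a log2 fold change over 1 and leaving out each sample.

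Named genes were the members, the deleted genes, called pathway genes, the 2 of highest mean CPM in each pathway list, the 3 most like each tested member, and called markers where a member was called, of which 1 gene is not reported here. Marker lists for spermatogonia, spermatocytes and round spermatids were also summed, at 73.9 to 95.4, 1447 to 1573 and 1594 to 1804 CPM over all samples. Positions and exon lengths are from GENCODE M21 (GRCm38) and promoters from RefSeq (GRCm38.p6), with motifs chosen after the promoters were seen. The Ptgds to marker ratio was also added after seeing the values. Sample names hold an L, or an R for Irp1-/- replicate 6, a mark that is not explained and was not used.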

Additional observations from a re-analysis of the deposited data

Results flagged for a closer look

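Ptges differed between the knockouts, with a log2 fold change of 0.78 for Irp1-/- against Irp2-/- testes, where the difference itself was tested. In WT testes, Pla2g4a was low in replicate 2, at 2.38 CPM against 2.94 to 3.05 CPM in the other 3 samples, and Ireb2 was low in replicate 3, at 131.9 CPM against 140.1 to 141.5 CPM. In both, the gap to the nearest sample exceeded Dixon's 95% limit for 4 samples. Chance flags about 1 in 20 groups, so 2.45 were to be expected among the 49 groups of 4 that were examined.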

How the results depend on the processing

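The number of genes called moved by over 1.5 times under a few settings. Requiring an absolute log2 fold change over 1 left 9 genes for Irp1-/- against WT, 28 for Irp2-/- against WT and 70 for Irp1-/- against Irp2-/-, in place of 164, 196 and 763. Leaving out a sample gave 55 to 216, 118 to 223 and 414 to 763 genes. Between the knockouts, 2 members (Ptges and Alox12) were called with RLE normalization, with no filter and with at least 10 counts in every sample. The same 2 were called with all 11 samples in a single fit. Totals of genes called under these settings are not given here, so the 2 members are not set against a background. DESeq2, with 639 of 16281 genes called, and the fold threshold called 0 members. When a sample was left out, 0 to 1 member was called. For Irp1-/- against WT, leaving out a sample gave 0 to 1 member called.

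The replicate numbers did not pair the samples, since deviations of same-numbered samples correlated at -0.01 to 0.078. With the replicate block, 439 genes and 1 member (Ptgds) were called for Irp1-/- against WT, and 2 members (Ptges and Ptgds) for Irp1-/- against Irp2-/-. The total of genes called between the knockouts with the block is not given here, so those 2 members are not set against a background. Also with the block, the log2 fold change of Ptgis turned to 0.10 for Irp1-/- against WT and to 0.038 for Irp2-/- against WT. That of Alox12 turned to 0.00029 for Irp2-/- against WT. The Ptgds log2 fold change was 0.47 for Irp1-/- against WT (edgeR adjusted p = 1.4e-17) and 0.38 for Irp1-/- against Irp2-/- (adjusted p = 3.1e-06), and for the knockouts Ptges had 1.01 (adjusted p = 0.0091) and Alox12 0.30 (adjusted p = 0.426). Irp1-/- shares only the replicate numbers 1 and 2 with WT and with Irp2-/-, so its blocked differences rest on those samples alone. For Ptgds these were the highest Irp1-/- samples (175 and 181 CPM) and the lowest WT samples (129 and 122 CPM). So few samples measure the spread poorly, and no conclusion is drawn from these adjusted p-values.

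Small differences changed sign when a sample was left out. For Irp1-/- against WT the log2 fold changes ranged from -0.00062 to 0.20 for Ptges, -0.11 to 0.072 for Ptgis, -0.57 to 0.092 for Alox5ap and -0.27 to 0.0030 for Alox15. For Irp2-/- against WT they ranged from -0.049 to 0.12 for Ptgds, -0.16 to 0.040 for Ptgis and -0.078 to 0.36 for Alox5. For Irp1-/- against Irp2-/- they ranged from -0.062 to 0.11 for Ptgis and -0.14 to 0.30 for Alox5. Ptgds per Leydig marker sum in Irp2-/- over WT, 1.01, became 0.816 without Insl3, 0.910 with the mean log2 CPM of the markers and 0.971 to 1.03 when a sample was left out, alternatives chosen after seeing the data. Counts of 2 to 22 per sample limit Alox15, Alox5ap and Ptgs1.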
